A study of Mus musculus with 12 samples.

Results

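The cytosolic ribosomal proteins were examined in naive CD4 T cells as a family of 82 genes among the 10073 genes of the table. Members were chosen by symbol alone, as every gene named Rpl or Rps followed by a number (with the usual letter, l or x endings) together with Rplp0, Rplp1, Rplp2 and Rpsa. All 82 passed the filter on low values, which asked for 0.5 RPKM or more on average, where RPKM scales reads to gene length in kilobases and to the size of the library. They comprised 46 core proteins of the large subunit, 31 core proteins of the small subunit, 4 paralogs (Rpl22l1, Rpl36al, Rps27l and Rpl7l1) and Rpl32l, a near copy of Rpl32. All 77 core proteins listed for a mammalian ribosome were in the table. Reads from near-identical copies, which ribosomal protein genes have in number as pseudogenes, may have been split or lost in the authors' counting, and this holds above all for Rpl32l.

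RNA sequencing was done on 12 libraries, 4 sorted populations from each of 3 mice. The animals were untreated and carried the Tg(Nr4a1-EGFP)GY139Gsat transgene, a GFP reporter of the immediate early gene Nr4a1 (Nur77) that reads out T cell receptor signalling, together with the Foxp3tm1Flv allele on a C57/BL6 background. Cells from spleen and lymph nodes that were CD4+, Foxp3-RFP negative and CD44lo were sorted directly into lysis buffer, with no stimulus given. Population A was Nur77-GFP lo and Ly6C+, population B had intermediate GFP with Ly6C, population C had intermediate GFP without Ly6C, and population D high GFP without Ly6C. By these labels, D against C and B against A ask what goes with more reporter within a Ly6C class. C against B asks what goes with Ly6C at intermediate reporter, and D against A what separates the ends of the range. Libraries are named below by population and mouse number, as in C2.

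Ribosomal proteins assemble with ribosomal RNA into a small subunit, which decodes the message, and a large subunit, which joins amino acids. Because each ribosome needs about equal numbers of nearly all of them, their mRNAs are among the most abundant of a cell and are regulated together, in good part through a pyrimidine tract at the 5′ end (the 5′ terminal oligopyrimidine or TOP motif) that places their translation under the kinase mTOR. Naive T cells are small and make little protein, and T cell receptor signals raise ribosome production when the cells leave that state.

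In Nr4a1 and Ly6c1 RNA the libraries did not all follow their labels, and the labels are therefore used here only as names. The sort was on GFP and Ly6C protein, and only RNA was measured here. Depth, recovered from the steps in the RPKM values, ran from 6.31 M reads (M for mega) in A3 to 9.07 M in C1. Nr4a1, whose promoter drives the sorted reporter, stood at 22.9 to 28.3 RPKM in A2, A3 and the libraries labelled C, at 36.0 in B1 and at 57.7 to 73.3 in A1, B2, B3 and the libraries labelled D, so that A1 and B1 went against their own populations and C against its GFP class. Ly6c1 averaged 64.6 and 64.3 RPKM in A and C and 43.9 and 43.7 in B and D, and was thus higher in the Ly6C negative C than in the Ly6C+ B. The summed T cell markers Cd4, Cd3e and Cd3d (3 of the 4 listed were in the table) were even, at 687 to 757 RPKM. Of 7 B and plasma cell markers 3 were in the table, and their sum was 955 RPKM in C3 against 8.11 to 30.5 elsewhere, with Jchain at 709 RPKM and Cd74 at 209 RPKM in C3. The red cell gene Hbb-bs was low in A1, B1, C2 and D2 (4.78 to 14.0 RPKM) and 79.1 to 111 RPKM elsewhere. In sorted bulk samples, fewer cells of a type and less RNA per cell cannot be told apart.

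Ribosomal protein mRNAs were among the most abundant in these cells. The median member averaged 578 RPKM over the 12 libraries, against 12.8 RPKM for the 10021 genes tested, and 62 members were among the 100 genes with the highest mean RPKM. Of the 23 genes above 1000 RPKM, 17 were members. A further 60 members lay between 100 and 1000 RPKM, and 5 lay below 100. Members were short, with a median length of 778.5 bases against 3601 for the genes tested, so that they took only 4.47% to 5.54% of the reads of all listed genes.

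The core proteins lay close together per length: 62 of 77 were within a factor of 2 of the core median of 620 RPKM (619.8). The medians were 612 RPKM for the large and 676 RPKM for the small subunit, and their ratio ran from 0.880 to 0.928 over the libraries. Highest was Rpl12, a protein at the base of the ribosomal stalk, at 2115 RPKM, followed by the stalk protein Rplp1 at 1380 (1380.2), the X-linked small-subunit protein Rps4x at 1374, Rps3a1 at 1253 and Rpl8, which lies near the site of peptide bond formation, at 1220 RPKM (1220.0). Lowest were Rpl32l at 5.11, Rpl7l1 at 16.9, Rps27l at 21.9, Rpl22 at 65.3 and Rpl36al at 73.5 RPKM. Rpl22 was thus the lowest core protein in RPKM and the only one of the core among the lowest 5, and the highest core mean was 32.4 times the lowest. Both depend on the deposited gene length, which was 4450 bases for Rpl22 against a median of 778.5 for the members. Every core protein had 490 to 15330 reads in each library, which gives a counting error of at most 4.52% and a median of 1.63%.

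**Figure D1:**
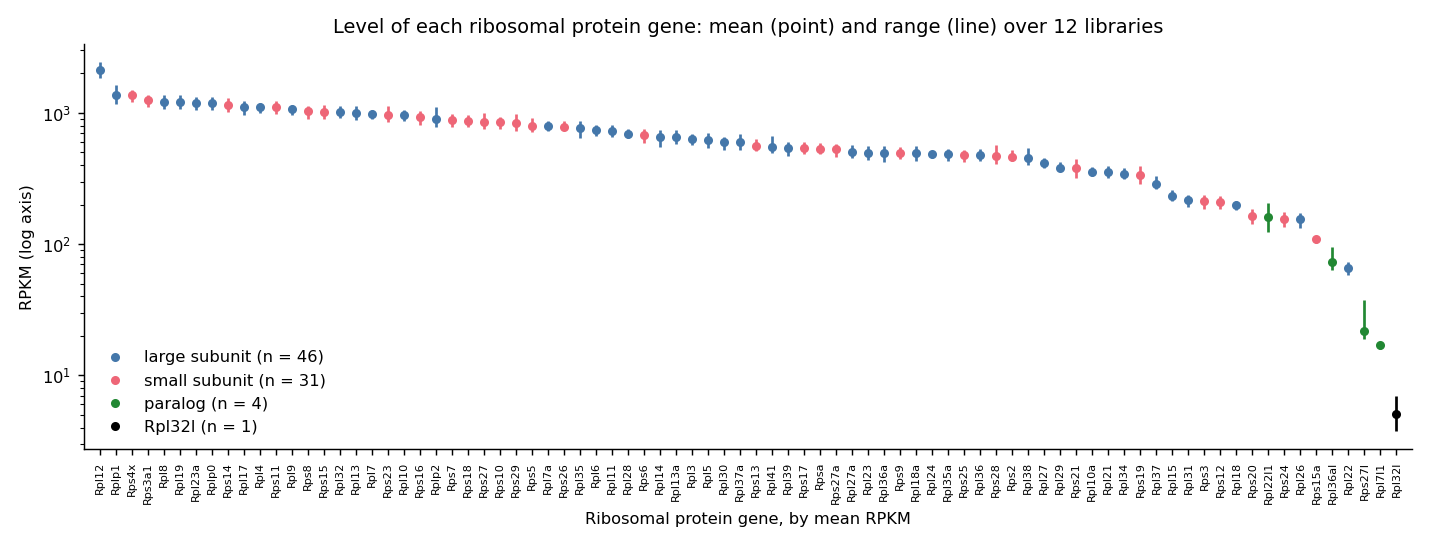
RPKM of the 82 members on a log axis, ordered by level and coloured by class, with the mean (point) and the range (line) over the 12 libraries. The core proteins form a narrow band around 620 RPKM (619.8), with Rpl12 at 2115 RPKM on top and the paralogs, Rpl32l and Rpl22 at the bottom.

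RefSeq promoter windows (GRCm38.p6, 250 bases before to 50 after each annotated start) were found for 62 of the 82 members, in 73 entries. A C followed by 4 bases that are C or T, the form of a TOP motif, was looked for at the annotated start. It was read on the sense strand, which has the sequence of the mRNA. It was in 14 of 62 members (22.6%), against 3.10% of 8142 genes tested and 3.01% of all 27025 genes with a window. The stretches below run from 10 bases before to 20 after the start, with the unbroken C and T run from the start in capitals. They are shown because this tract is the sequence that the family is known for, and because they set members with a tract beside members without one.
Rpl35, chr2:39005112-39005141, minus strand: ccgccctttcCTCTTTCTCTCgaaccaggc
Rps6, chr4:86857348-86857377, minus strand: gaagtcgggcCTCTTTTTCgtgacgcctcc
Rpl28, chr7:4792955-4792984, plus strand: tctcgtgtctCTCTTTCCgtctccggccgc
Rplp2, chr7:141447641-141447670, plus strand: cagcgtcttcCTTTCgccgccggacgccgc
Rpl14, chr9:120571507-120571536, plus strand: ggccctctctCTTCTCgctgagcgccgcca
Rps21, chr2:180257369-180257398, plus strand: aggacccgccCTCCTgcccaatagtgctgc
Rpl22l1, chr3:28805498-28805527, plus strand: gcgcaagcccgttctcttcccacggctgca
Rpl36al, chr12:69184048-69184077, minus strand: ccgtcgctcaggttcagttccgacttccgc
Rpl7l1, chr17:46782637-46782666, minus strand: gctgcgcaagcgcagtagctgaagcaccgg
Rps27l, chr9:66946076-66946105, plus strand: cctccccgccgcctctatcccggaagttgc

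The first 6 carry the tract at the annotated start and the 4 paralogs do not, but most core members, such as Rpl5, Rps16 and Rplp0, lack it too, and Rpl32l has it. Rps27l has a second window, also without the tract. A start annotated a few bases away hides a tract from this search. A run of 8 C or T anywhere within 15 bases of the start, which overlaps the first motif, was found in 28 of 62 members (45.2%), Rpl22l1 and Rps27l among them, against 14.8% of genes tested and 13.9% of all genes. The ETS-type motif CCGGAAG, on either strand, was in 25 of 62 members (40.3%), 23.3% of genes tested and 9.93% of all genes. TATAAA, on either strand, was in 8 of 62 members (12.9%), 7.81% of genes tested and 15.7% of all genes. In Rps21 a CCGGAAG begins 26 bases before the start and in Rps7 it lies on the other strand, 14 bases before the start, as the capitals show. Both were picked after their differences below were seen. Of other members named below as lower in D than in C, Rps6 has the motif. Rpl11, Rplp2 and Rps27l, whose differences did not pass, have it too. Rpl5, Rpl12, Rpl14, Rpl22, Rpl23, Rpl36a, Rpl36al, Rplp0, Rps16 and Rps24 lack it. For Rpl21, Rpl30 and Rplp1 no window was found.
Rps21, chr2:180257319-180257378, plus strand: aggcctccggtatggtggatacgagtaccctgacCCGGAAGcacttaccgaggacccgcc
Rps7, chr12:28635954-28636013, minus strand: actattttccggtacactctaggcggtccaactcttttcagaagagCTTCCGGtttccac

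The members moved up and down together from library to library. Each member's level over the 12 libraries was set beside the median of the other members, and 71 of 82 had a Pearson r over 0.8, against 159 of 9939 other genes tested (1.60%). All 71 were core proteins. Only 4 members had an r under 0.5: Rps27l (0.17), Rpl22l1 (0.24), Rpl32l (0.39) and Rpl7l1 (0.41), and the next, Rpl36al, had 0.58. These r values are over 12 libraries that share 3 mice and are a description. The genes outside the family with the most similar course were Cd52, a surface glycoprotein of lymphocytes (r 0.95), the elongation factor gene Eef1a1 (0.95) and Hint1 (0.94).

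As deviations from each member's mean over the 12 libraries, on the log2 scale, the median member stood lowest in B2 (-0.17), D1 (-0.10), B3 (-0.08), D3 (-0.06) and A1 (-0.06). It stood highest in C2 (0.14), C3 (0.13), B1 (0.10) and A3 (0.07). In between lay D2 (-0.03), A2 (-0.00) and C1 (0.04). The libraries labelled C were thus all above 0 and those labelled D all below it, while A and B each held libraries on both sides. All genes tested had a median between -0.02 and 0.01 in every library.

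The single members followed the same order. In C2 81 of 82 members were above their own mean, in C3 79 and in B1 78, against 2 in B2, 2 in B3 and 3 in D1. B2 held the lowest value of 70 members, and C2 and C3 held the highest value of 41 and 30.

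**Figure D2:**
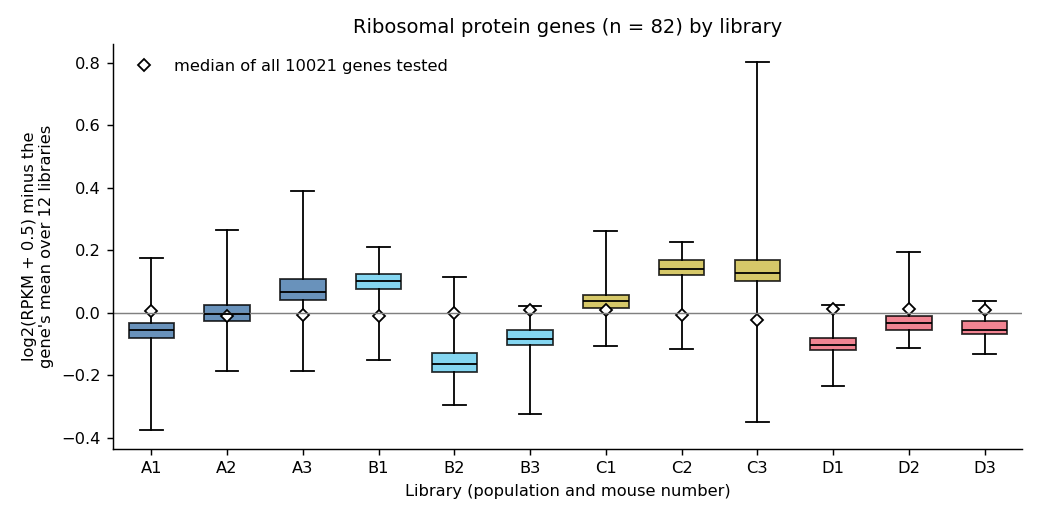
Deviation of log2(RPKM + 0.5) from each member's own mean over the 12 libraries, 1 box of 82 members per library (line, median; box, quartiles; whiskers, lowest and highest member; diamond, median of all genes tested). The whole box shifts between libraries, from -0.17 in B2 to 0.14 in C2, and B1 stands apart from B2 and B3.

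Members took a mean of 5.05% ± 0.234 of the reads in A (SD, n = 3), 4.86% ± 0.476 in B, 5.39% ± 0.208 in C and 4.78% ± 0.115 in D. Values in C (5.15% to 5.54%) did not overlap those in D (4.65% to 4.87%), and those in B (4.47% to 5.39%) spanned nearly the whole range. The library order of this share went with other measures. The 6 libraries with the lowest share (B2, D1, B3, D3, A1 and D2) were the 6 with the highest Nr4a1, and so cut across the labels of A and B. The 4 with the highest share (A3, B1, C3 and C2) were the 4 of lowest depth, at 6.31 to 6.86 M reads. Thinning the reads of every library to about 6.29 M left the shares at 4.46% to 5.53% and the D minus C median at -0.17, the same to 2 decimals as without thinning. Random thinning keeps each gene's expected share, so this check covers only counting noise at lower depth and not what else goes with depth. Foxp3, the defining gene of regulatory T cells, which the sort set out to remove, was at 3.25 to 4.00 RPKM in the 6 libraries of lowest share and at 1.15 to 1.53 in the other 6. Mki67, a marker of dividing cells, was at 1.84 to 3.27 RPKM in the former and at 0.550 to 1.11 in the latter other than C3. The part of these in the order of the share was not tested.

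**Figure D3:**
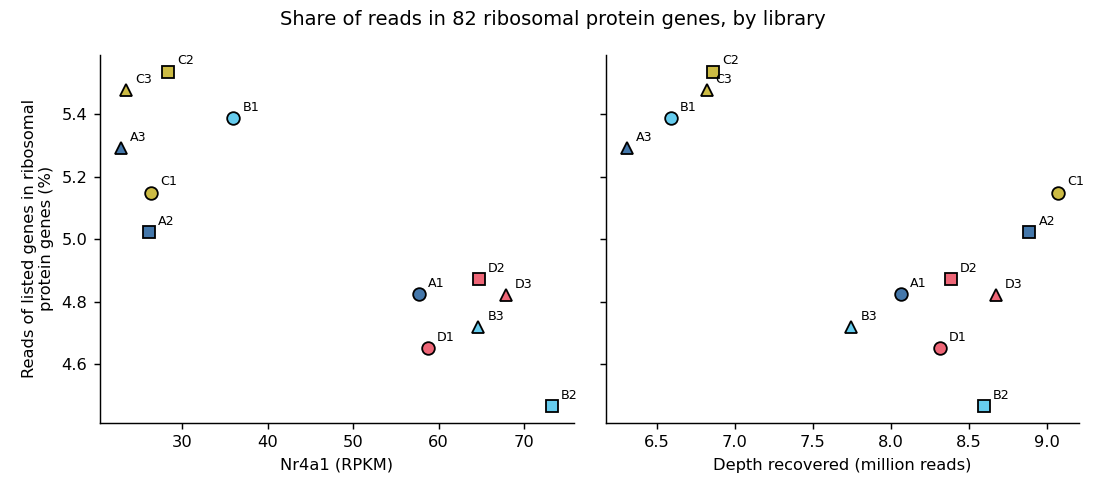
Share of reads in the 82 members, in percent, against the Nr4a1 level in RPKM (left) and the depth in M reads (right), 1 point per library, coloured by population, with the symbol giving the mouse. The 6 libraries with Nr4a1 of 57.7 RPKM or more have shares of 4.47% to 4.87%, and the other 6 have 5.02% to 5.54%.

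Ribosomal protein mRNAs were lower in the libraries labelled D than in those labelled C for nearly the whole family, by a small amount. The labels make this a step in reporter without Ly6C, but Ly6c1 RNA also differed, at 64.3 RPKM in C and 43.7 in D. The log2 difference D minus C was below 0 for 81 of 82 members, with a median of -0.17, or 0.888 of the level in C, against a median of 0.01 over all genes tested. It was -0.17 for the large and -0.18 for the small subunit, and -0.15 for the 4 paralogs and Rpl32l. Paired by the labelled mouse number, the median was -0.14, -0.18 and -0.19, with 79, 79 and 80 members below 0. For 63 of 82 members every D library was below every C library, where 9.89% of all genes tested did the same.

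No single member passed the test in the fit of all 12 libraries (limma on log2(RPKM + 0.5), Benjamini-Hochberg adjustment over the 10021 genes), where 0.00998% of genes tested, 1 gene, passed. At an unadjusted p under 0.05 there were 52 members, all lower in D, where 7.02% of genes tested were lower at that p, and limma-voom on the recovered reads likewise called 0. In the fit of the 6 libraries of C and D alone, 13 members fell in D and 0 rose, where 1.45% of genes tested fell. These were the large-subunit proteins Rpl5, Rpl12, Rpl14, Rpl21, Rpl23, Rpl30, Rpl36a, Rplp0 and Rplp1 and the small-subunit proteins Rps6, Rps7, Rps16 and Rps24. Leaving out B1, which takes part only in the common spread, gave 6 members lower in D in the larger fit, where 1.13% of genes fell. Leaving out A1 and B1 gave 32, where 2.58% fell. Leaving out C3 as well gave 17, where 2.77% fell.

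The difference depended on how the libraries were scaled. Quantile normalization, which forces the same distribution of values on every library, brought the median to -0.03 with 59 members below 0. With a trend in GC content and length removed from each library it was -0.15 (-0.145), with libraries rescaled to equal medians -0.19, and by limma-voom -0.18.

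The small-subunit protein Rps16 stood at 971, 1044 and 1036 RPKM in C1, C2 and C3 and at 834, 867 and 869 in D1, D2 and D3. The groups did not overlap, and Rps16 was also low in A1 (848) and B2 (811) and high in B1 (1037). The log2 difference D minus C was -0.25 ± 0.05 (SE), with a limma adjusted p of 0.0220 in the 6 libraries and 0.162 in all 12.

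Rpl5 and Rpl11 form, with 5S ribosomal RNA, the particle that can also bind Mdm2 and so links ribosome assembly to p53. Rpl5 was at 654, 671 and 667 RPKM in C and at 571, 583 and 582 in D, without overlap. Its log2 difference was -0.20 ± 0.04 with a limma adjusted p of 0.0266 in the 6 libraries. Rpl11 was at 741, 813 and 786 RPKM in C and at 708, 735 and 720.2 in D, also without overlap but closer together. Its difference of -0.11 ± 0.05 did not pass (adjusted p 0.259 by limma in the 6 libraries).

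The stalk of the large subunit, which recruits the elongation factors, is built from Rplp0, Rplp1 and Rplp2. Rplp1 was at 1429, 1567 and 1636 RPKM in C and at 1235, 1289.6 and 1273 in D, and in B at 1548 in B1 against 1167 and 1272. The groups C and D did not overlap, and B1 lay among the C libraries. Its log2 difference D minus C was -0.28 ± 0.06, the largest of the family, with a limma adjusted p of 0.0289 in the 6 libraries and 0.143 in all 12.

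Rplp0, which anchors the stalk, stood at 1243, 1327 and 1306 RPKM in C and at 1097, 1154 and 1103 in D, and its difference of -0.21 ± 0.05 gave a limma adjusted p of 0.0411 in the 6 libraries. Rplp2, the partner of Rplp1, stood at 883, 1018 and 1114 RPKM in C and at 812, 886 and 833 in D. D2 was thus above C1, and the difference of -0.25 ± 0.08 did not pass (adjusted p 0.148 by limma in the 6 libraries).

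Rpl36a (-0.23 ± 0.05, adjusted p 0.0316), Rps24 (-0.22 ± 0.05, 0.0352) and Rps7 (-0.19 ± 0.04, 0.0362) also fell in D by limma in the 6 libraries. Smallest adjusted p in all 12 libraries were those of Rpl22 (-0.18 ± 0.06, 0.128) and Rps21 (-0.28 ± 0.09, 0.137). Rps21, whose start region is printed above, was at 391, 442 and 442 RPKM in C and at 322, 363 and 367 in D. The groups were apart, but C1 and D3 were closer to each other than D1 was to D2 or C1 to C2. The one member above 0 was Rpl7l1 (0.01 ± 0.06, adjusted p 0.972 by limma over 12 libraries).

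**Figure D4:**
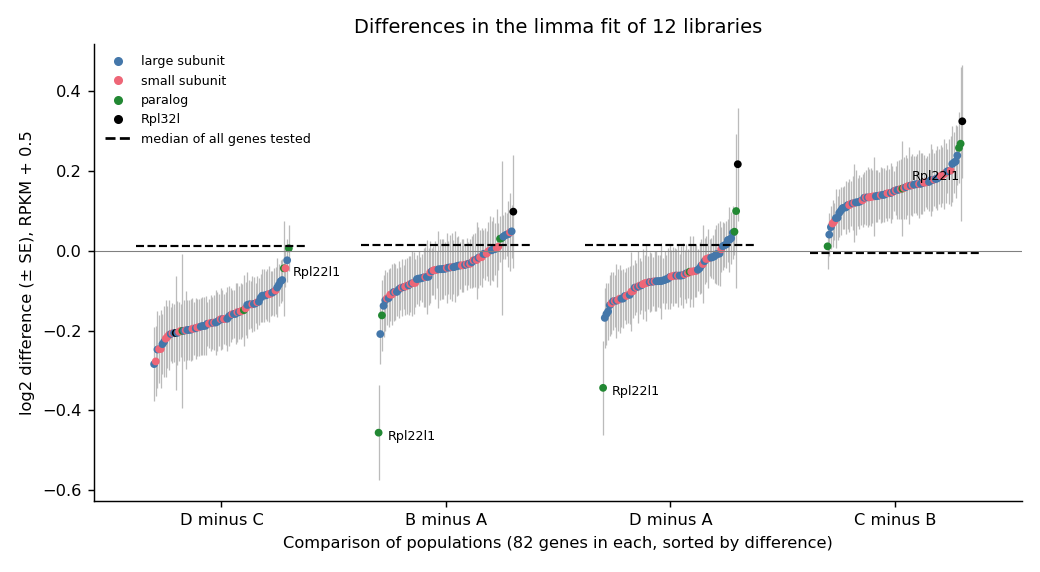
Log2 difference of each member in D minus C, B minus A, D minus A and C minus B (limma, 12 libraries), 1 point per member with its SE, coloured by class, and the median of all genes tested as a dashed line. Members lie below 0 in D minus C (81 of 82) and above 0 in C minus B (82 of 82), with medians of -0.17 and 0.15. In B minus A and D minus A 67 and 71 of 82 lie below 0, with medians of -0.04 and -0.07.

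Short and long members had similar medians. Members of up to 778 bases had a D minus C median of -0.18 and longer ones -0.16. Over the 248 other genes of up to the median member length the median was -0.05. Members had a median GC content of 50.9% against 49.4% for the genes tested.

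Members were higher in C than in B for all 82, with a median log2 difference of 0.15, or 1.11 times the level in B, against -0.00 over all genes. Both are labelled as GFP intermediate, but Nr4a1 averaged 26.0 RPKM in C and 58.0 in B. This comparison shares the C libraries with D minus C, so the pair is not independent, and the same holds for any other comparisons here with a population in common. No member passed in the 12 libraries (limma, Benjamini-Hochberg), where 0.00998% of genes tested passed. At an unadjusted p under 0.05 there were 35 members, all higher in C, where 5.49% of genes tested were higher at that p, and limma-voom called 0. By limma in the 6 libraries of B and C alone, 0 members and 0 of all genes passed. There, 6 members were higher in C at an unadjusted p under 0.05, where 389 of the 10021 genes tested were.

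B1 set much of the spread in B. In mouse 1 the median was -0.07, with 74 members lower in C1 than in B1, while in mice 2 and 3 it was 0.31 and 0.21, with 80 and 81 members higher. Without B1, 35 members rose in C, where 1.38% of genes tested rose. Without A1 and B1, 52 rose, where 2.76% rose, and without C3 as well 44, where 3.23% rose. Only 4 members (Rpl14, Rpl22, Rpl36a and Rpl36al) had every C library above every B library, 4.88% of the family, where 6.31% of genes tested did. Under quantile normalization the median was 0.03.

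Rpl14, a large-subunit protein, was at 683, 552 and 579 RPKM in B, at 704, 736 and 692 in C, at 654, 691 and 745 in A and at 602, 632 and 623 in D. B2 and B3 were the lowest of all, and the range of A took in that of C. The log2 difference C minus B was 0.24 ± 0.07 (limma adjusted p 0.287 over 12 libraries), and without B1 it was 0.33 and passed.

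Between B and A, both labelled Ly6C+ though Ly6c1 averaged 43.9 RPKM in B and 64.6 in A, the log2 difference of the members, B minus A, was -0.04, with 67 members below 0 and 15 above. That median joined opposite directions, since 79 members were higher in B1 than in A1 (median 0.16) while 78 and 77 were lower in B2 and B3 than in A2 and A3 (medians -0.16 and -0.15). By limma over 12 libraries no member passed, where 2.23% of genes tested did, and 2 were lower in B at an unadjusted p under 0.05 (2.44% of the family), where 12.3% of genes tested were. In the 6 libraries alone 1 member, Rpl22l1, fell in B, where 3.18% of genes fell, and limma-voom called it too. Values of 2 members, Rpl22l1 and Rpl36al, did not overlap and were lower in B, 2.44% of the family, where 15.8% of genes tested did so. Leaving out A1 and B1, whose Nr4a1 went against their labels, gave a median of -0.15. It gave 19 members lower in B, where 4.26% of genes fell, and 27 without C3 as well, where 7.13% fell. These exclusions were chosen after the data were seen. Dropping A1 and B1 removes the pair in which members were higher in B, so the lower median follows from the choice.

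Furthest above 0 by p in B minus A were Rpl29 (0.04 ± 0.05, adjusted p 0.684) and Rpl37 (0.05 ± 0.07, 0.693), which did not pass by limma over 12 libraries and turned below 0 with the GC and length trend removed. Rpl14 was at -0.21 ± 0.07 (adjusted p 0.126) and passed without B1, at -0.30.

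Between the labelled ends of the reporter range, D against A, the median was -0.07, with 71 members below 0. Paired by the labelled mouse number it was -0.05, -0.03 and -0.12. No member passed by limma over 12 libraries, where 0.00998% of genes tested did, nor in the 6 libraries alone, where 0.0299% did, and 2 members were lower in D at an unadjusted p under 0.05, where 8.18% of genes tested were. For 19 of 82 members (23.2%) every D library was below every A library, where 11.7% of genes tested were. These included Rpl5, Rpl14, Rpl22, Rpl22l1, Rplp1, Rps6 and Rps7. Without A1 and B1 5 members fell in D, where 2.76% of genes fell, and without C3 as well 10 did, where 4.84% fell. Rpl22l1 (-0.34 ± 0.12, adjusted p 0.186) and Rpl14 (-0.17 ± 0.07, 0.251) were the lowest by p and Rpl32l (0.22 ± 0.14, 0.421) and Rpl7l1 (0.05 ± 0.06, 0.678) the highest, by limma over 12 libraries. None of these passed.

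By the labels, D minus C less B minus A asks whether the step in reporter differed between the Ly6C classes. Ly6c1 RNA fell in both steps, from 64.3 RPKM to 43.7 between C and D and from 64.6 to 43.9 between A and B. Nr4a1 RNA was also higher in A1 (57.7 RPKM) than in B1 (36.0). The contrast therefore cannot separate reporter from Ly6C in RNA, and is given only as a difference between labelled steps. The members' median was -0.11, with 76 below 0, and no member passed, where 0.0% of genes tested did (limma over 12 libraries, smallest adjusted p among members 0.290). At an unadjusted p under 0.05 there were 2 of 82 members and 1507 of the 10021 genes tested, and limma-voom called 0 members. The 2 were Rpl22l1 (0.41 ± 0.17, adjusted p 0.290) and Rps21 (-0.28 ± 0.12, 0.320). Without A1 and B1 the median was -0.01.

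Among the members above 100 RPKM, Rpl22l1 had the course least like the rest, and it is the paralog of the lowest core protein, Rpl22. Rpl22 is not needed for ribosomes to work in most cells, but mice without it fail to make alpha-beta T cells, and Rpl22l1 can take its place in the ribosome. Rpl22 stood at 64.8, 66.4 and 66.2 RPKM in A, at 68.1, 58.0 and 59.6 in B, at 68.7, 70.6 and 73.7 in C and at 62.5, 61.8 and 63.1 in D. C was above every other library, B2 and B3 were lowest, and Rpl22 thus followed the family. Per length, Rpl22l1 was the more abundant of the pair in every library. This rests on deposited lengths of 4450 bases for Rpl22 and 567 for Rpl22l1. In reads per library Rpl22 was the higher, at 1859 to 2773 against 479 to 957 for Rpl22l1.

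Rpl22l1 stood at 179, 189.9 and 207 RPKM in A, at 154, 129 and 137 in B, at 185, 164 and 124 in C and at 152, 156 and 144 in D. All A libraries lay above all B and all D libraries, and C ran from below every other library (C3) to above all but A2 and A3 (C1). B minus A was -0.46 ± 0.12 on the log2 scale, with a limma adjusted p of 0.0634 over 12 libraries. It was -0.46 ± 0.08 with 0.0284 in the 6 libraries, and it passed as well without C1, without C3, without A1 and B1 and by limma-voom. With the GC and length trend removed it was -0.30 ± 0.13 with an adjusted p of 0.404, and with the mouse number as a block the adjusted p was 0.0847. Over single libraries left out the adjusted p ran from 0.0168 to 0.191.

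The ratio of Rpl22l1 to Rpl22 in RPKM was 2.92 ± 0.192 in A (SD, n = 3), 2.26 ± 0.042 in B, 2.23 ± 0.512 in C and 2.42 ± 0.122 in D. It was 2.75 to 3.13 in the A libraries and at most 2.69 elsewhere, with the lowest value, 1.68, in C3. C3 is the library with the B and plasma cell transcripts, and their part in its ratio was not tested. GC content was 43.5% for Rpl22l1 and 49.2% for Rpl22. Across genes, the r of GC content with a library's deviations was -0.37, -0.36 and -0.40 in A1, A2 and A3. It was -0.21 in C1, -0.20 in D1 and 0.14 to 0.28 in the other libraries. The part of this in the ratio was not tested.

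**Figure D5:**
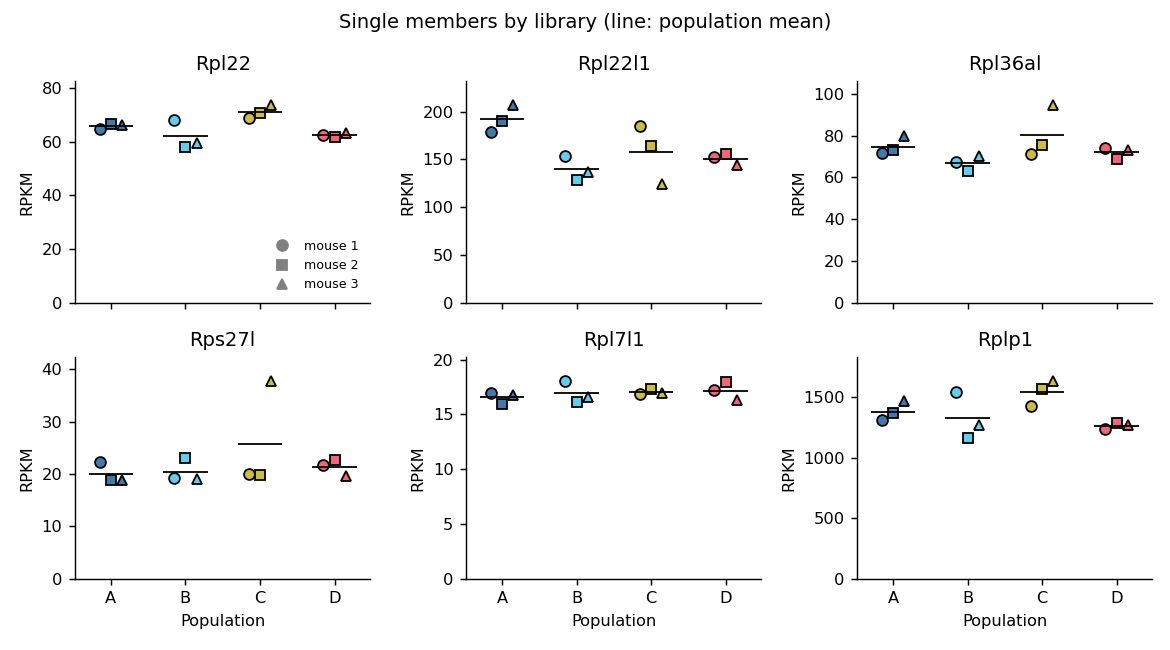
RPKM of Rpl22, Rpl22l1, Rpl36al, Rps27l, Rpl7l1 and Rplp1 in each library, grouped by population, with 1 symbol per mouse and a line at the population mean (vertical axes start at 0). Rpl22l1 is highest in A (179 to 207 RPKM) and spread in C (124 to 185), while Rpl22 is highest in C (68.7 to 73.7).

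Rps27l, a paralog of Rps27 that p53 induces, stood at 37.8 RPKM in C3 and at 18.8 to 23.0 in the other 11 libraries. Rpl36al, a paralog of Rpl36a, stood at 94.8 RPKM in C3 and at 63.0 to 79.7 elsewhere. C3 was thus the highest library for both, and by a wide gap. Their D minus C differences, -0.20 ± 0.19 and -0.15 ± 0.09, did not pass (adjusted p 0.634 and 0.404 by limma over 12 libraries). The high values of C3 went with its B and plasma cell transcripts and with Mki67 at 17.0 RPKM against 0.550 to 3.27 elsewhere. The part of these in Rps27l and Rpl36al was not tested.

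Rpl7l1, a protein of ribosome assembly related to Rpl7, was the steadiest of the paralogs, at 15.9 to 18.1 RPKM in all 12 libraries. Its populations overlapped in every comparison. Rpl32l was at 3.77 to 6.94 RPKM, which was as few as 18 reads in a library, and Rps27l had 71 to 154 reads, against 490 or more for every core protein.

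Other lists of translation genes had medians nearer to 0 than the ribosomal proteins in D minus C. Between C and D, the elongation factors had a median of -0.10, with 5 of 6 below 0, and 19 further TOP mRNAs had -0.07, with 14 below 0. Initiation factors (28 genes, -0.01), ribosome assembly factors (29, -0.04) and genes of translation control (11, 0.00) followed. The ribosome of mitochondria, whose proteins are encoded by a separate gene set, had a median of -0.02 over 76 tested genes, with 45 below 0.

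No gene of these lists passed in D against C over 12 libraries. In the 6 libraries, the TOP mRNA Tpt1 fell in D (-0.20 ± 0.04, adjusted p 0.0378), and of the mitochondrial ribosome Mrps6 rose (0.87 ± 0.12, 0.00384) and Mrpl23 fell (-0.24 ± 0.05, 0.0489), by limma. C minus B medians were 0.09 and 0.09 for the elongation and TOP lists, with 19 of 19 TOP mRNAs above 0, and 0.06, 0.04, 0.02 and 0.00 for initiation factors, the mitochondrial ribosome, assembly and control.

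In B against A, 5 of 28 initiation factors, 3 of 19 TOP mRNAs and 1 of 29 assembly factors fell in B over 12 libraries by limma, where 2.23% of all genes passed in either direction. Among them were Eif1ax (-0.38 ± 0.06, adjusted p 0.0367), Eif3j1 (-0.49 ± 0.09, 0.0377) and Eif2s2 (-0.24 ± 0.05, 0.0463). The TOP mRNAs were Nap1l1 (-0.32 ± 0.07), Eif3e (-0.32 ± 0.07) and Npm1 (-0.26 ± 0.06), each with an adjusted p of 0.0463 by limma. Eif3e is also among the 5 initiation factors, and Npm1, a nucleolar chaperone, is the assembly factor. These calls held under some alternatives and not under others. Initiation factors called lower were 4 in the 6 libraries alone, 7 by limma-voom, 5 under quantile normalization and 6 without A1 and B1. For the TOP mRNAs these counts were 3, 3, 2 and 3, and for the assembly factors 1, 1, 0 and 2. Blocking on the mouse left 0 genes of the 3 lists past the threshold, with adjusted p of 0.0547 to 0.0671 for the 6 named genes by limma. With the GC and length trend removed 0 passed as well, and Eif3e was at 0.01 and Eif2s2 at -0.02. All 3 lists were also at 0 calls without A2, without A3, without B2, without B3 and without D2.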

How the data were processed

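Libraries of sorted naive CD4 T cells were made with the SMART-seq v4 and NexteraXT kits from polyadenylated RNA, per the labels' protocols. The submitters' processing notes name STAR and the builds mm9 and mm10; no source used here gives the counting tool, the annotation or the use of strand. The authors deposited 1 table of RPKM values, per the file headers, with Entrez identifiers and gene lengths. Multiplied by length and depth, the values gave whole reads within 0.1 read for 100% of those examined, which gave the depth of each library. RPKM cannot be compared as absolute amounts: a gain in some genes lowers all others.

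Differences were tested with limma 3.58.1 (R 4.3.3, mean-variance trend) on log2(RPKM + 0.5) over all 12 libraries without a block, for the 10021 genes that averaged 0.5 RPKM or more, with Benjamini-Hochberg adjustment over all of them and a threshold of 0.05. Fold changes are on that log2 scale, which understates those of low genes. The same fit was run on the 6 libraries of each comparison. Medians over members carry no test. Python 3.11.15, numpy 2.4.6, pandas 2.3.3 and matplotlib 3.10.9 were used for the rest, and the fit was tested on simulated data. Promoter sequences came from RefSeq on GRCm38.p6, matched by gene identifier for 62 members, and only names were taken across from the deposited table.

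Mouse numbers in the labels pair the libraries: by the labels, those with the same number come from 1 animal. Pairing was checked by correlating, across genes, how libraries depart from the mean of their population. This averaged -0.07 for the same mouse number (-0.61 to 0.38, 1 of 18 pairs over 0.1). Pairs that differ in number and population averaged 0.03 (13 of 36 over 0.1), so the check did not bear out the pairing. The mouse number as a block was an alternative. By the labels the replicates are separate mice, so p-values measure the spread between these 3 animals and their handling.

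Members and lists were chosen with earlier results of these data known. Named members were the 5 highest and lowest by level, the paralogs, the stalk proteins, Rpl5, Rpl11 and Rpl22, and per comparison and fit up to 6 past the threshold by p, or the 2 nearest in a direction with none; the lists' genes were the first 3 past the threshold. Hbb-bs, Cd52, Eef1a1, Hint1, Rpl32l, Jchain, Cd74, Mki67 the members whose sequence is printed and the other members of the 13 lower in D were named after their values were seen. Alternatives were other pseudocounts (0.1, 1), filters (none, 5 RPKM) and scalings, removal of GC and length trends, no trend, limma-voom, single libraries left out and, chosen after seeing the data, leaving out A1 and B1 or these and C3, and thinned reads. Some results on genes outside the family are not reported here.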

Additional observations from a re-analysis of the deposited data

How the results depend on the processing

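The median of the members kept its direction in every comparison under every alternative run, except that B minus A became 0.0091 without B2. Leaving out each library in turn gave medians of -0.21 to -0.15 for D minus C, 0.09 to 0.23 for C minus B, -0.12 to 0.0091 for B minus A and -0.10 to -0.03 for D minus A. It gave 0 to 6 members called for D against C, 0 to 35 for C against B and 0 to 1 for B against A, with B1 behind the 6 and the 35, and 0 for D against A and for the difference of steps. Quantile normalization moved the medians of D minus C to -0.029 and of C minus B to 0.026. Members make up 62 of the 100 genes highest in mean RPKM, and the part of this in the change was not tested. B against A had 1 member called under quantile normalization (Rpl14) and, for Rpl22l1, in the 6 libraries alone and by limma-voom. D against C had 13 called in the 6 libraries alone. Without A1 and B1, members called were 32 for D against C, 19 for B against A, 5 for D against A and 52 for C against B, and the B minus A median was -0.15. Without C3 as well they were 17, 27, 10 and 44, with the same -0.15; the causes were not tested. With the mouse number as a replicate block, 0 members were called in every comparison, so that the block changed no call of a member in the fit of 12 libraries, but it ended the B against A calls of the initiation, TOP and assembly lists (5, 3 and 1 without it, 0 with it). Among single members, Rpl7l1 in D minus C turned below 0 with median rescaling (-0.00876), quantile normalization (-0.00834), GC and length trend removed (-0.0165), limma-voom (-0.00691), thinned reads (-0.00321) and, over the libraries left out in turn, ran from -0.0271 without D2 to 0.0423 without D3. In B minus A, Rpl29 turned to -0.0644 and Rpl37 to -0.0139 with that trend removed, and Rpl29 to -0.00207 without A1 and B1, with or without C3. Rpl7 in the difference of steps (0.02 ± 0.08) turned to -0.0727 with that trend removed, and ran from -0.0120 without B2 to 0.0649 without B1, being below 0 also without B3 (-0.00168), C3 (-0.00484) and D2 (-0.00572). None of these passed the test. Few reads limit Rpl32l (from 18 in a library) and Rps27l (from 71).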
